A study of Mus musculus with 12 samples.

Results

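The genes described here encode 10 amino acid transporter proteins of the plasma membrane: Slc3a2, Slc7a5, Slc7a11, Slc7a1, Slc7a3, Slc1a4, Slc1a5, Slc38a2, Slc38a1 and Slc6a9. They were chosen by gene symbol, with earlier results of these data known. Both deposited tables list all 10, among 45706 genes for mouse blastocysts and 13009 genes for mouse embryonic stem (ES) cells. Of the 10, 9 had an adjusted p-value in blastocysts and 10 in ES cells. The study measured RNA by sequencing in material labelled Dis3L KO or Dis3L WT, and Dis3l encodes the RNase of the exosome complex that degrades RNA in the cytoplasm. The labels list 3 samples in each of 4 groups: knockout blastocysts, wild-type blastocysts, knockout ES cells and wild-type ES cells. Blastocysts were taken from hormone-stimulated females 96 hours after hCG, and each library was made from a single embryo. ES cell lines were derived from blastocysts on inactivated fibroblast feeders. Their medium held serum, added nonessential amino acids, glutamine and 500 IU/ml LIF. The labels name neither the knockout allele nor the number of independent ES cell lines, and no source used here says whether the ES cell samples came from separate lines. For them a p-value may measure technical spread only.

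Cells take up amino acids through carriers with overlapping substrates. Slc3a2 encodes the heavy chain 4F2hc, which pairs with light chains such as LAT1 (Slc7a5), an exchanger of large neutral amino acids including leucine, and xCT (Slc7a11), which imports cystine in exchange for glutamate. Slc7a1 and Slc7a3 encode the cationic transporters CAT1 and CAT3 for arginine and lysine, Slc1a4 and Slc1a5 the neutral exchangers ASCT1 and ASCT2, Slc38a1 and Slc38a2 the sodium-coupled neutral transporters SNAT1 and SNAT2, and Slc6a9 the glycine transporter GLYT1. When amino acids run short, the kinase GCN2 raises translation of the transcription factor ATF4, which activates many of these genes through amino acid response elements. Preimplantation embryos are known to depend on such carriers for leucine, glutamine and glycine.

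The core of the amino acid response element, TGATGNAA, was looked for on both strands of RefSeq promoter windows (GRCm38.p6), each 250 bases before to 50 after an annotated start. The antioxidant response element core, TGACNNNGC, was looked for in the same way, because Slc7a11 is also a known target of the factor NRF2. Windows existed for 6 of the 10 genes, 9 windows in all: Slc3a2, Slc7a1, Slc7a11, Slc1a4, Slc38a2 and Slc6a9. Below are 120 bases before to 20 bases from the start for Slc7a11 and Slc1a4, the 2 genes whose windows held TGATGNAA, and for Slc38a2, the gene with the second-highest mean in blastocysts, whose window held only TGACNNNGC. All 3 lie on the minus strand and are written 5′ to 3′ along the gene. The coordinates are chr3:50443594-50443733 for Slc7a11, chr11:20332694-20332833 for Slc1a4 and chr15:96699709-96699848 for Slc38a2. Capitals mark TGATGNAA, or its reverse complement, in the sequences of Slc7a11 and Slc1a4, and TGACNNNGC in that of Slc38a2.
Slc7a11: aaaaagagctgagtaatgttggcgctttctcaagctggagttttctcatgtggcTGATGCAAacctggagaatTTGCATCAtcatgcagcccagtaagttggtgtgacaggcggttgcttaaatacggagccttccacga
Slc1a4: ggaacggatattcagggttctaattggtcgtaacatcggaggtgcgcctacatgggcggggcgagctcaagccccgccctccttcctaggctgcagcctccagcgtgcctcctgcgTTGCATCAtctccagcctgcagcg
Slc38a2: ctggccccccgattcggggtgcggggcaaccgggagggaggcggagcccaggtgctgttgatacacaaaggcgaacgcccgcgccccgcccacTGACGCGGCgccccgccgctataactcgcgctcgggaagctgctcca

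TGATGNAA occurred 2 times in the Slc7a11 window, starting at positions −66 and −47 relative to the annotated start, once on each strand. In Slc1a4 it occurred once, starting at position −4 and running across the start. Among all 32817 windows of the same length, 3.97% held it. TGACNNNGC occurred in windows of 3 genes, Slc7a1, Slc38a2 and Slc6a9, and nowhere overlapped a TGATGNAA match. For Slc6a9 it lay in 2 separate windows, starting at positions −46 and −45. Of all windows, 12.4% held it, which is a share of windows and not of genes, and a gene can have several windows. These matches are a description of the letters in the windows. Introns were not searched.

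The tables hold no value per sample, so the reads behind each mean were recovered. In each mean, a read of a given count column counts for the same fixed amount, and a single combination of reads gave each mean (and, in blastocysts, also its fold change) for all 10 genes in both tables. Blastocysts had 6 count columns, 3 to a side. ES cells had 4, 2 to a side, although the labels list 6 ES cell samples. The source does not say which side is the knockout, and no column was given a sample or a genotype. Over the genes that could be solved, which leave out the most abundant ones and so are only part of each library, the reads per column added up to between 1202438 and 2824320 in blastocysts and between 933259 and 1527881 in ES cells. In blastocysts 95.6% of the nonzero values were even numbers, so a sequenced pair of reads may have been counted as 2. Below, normalised reads are recovered reads divided by the size factor of their column, values run in the order of columns 1, 2 and 3 of a side, and a positive log2 fold change means a higher level on the positive side.

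The blastocyst columns were unequally alike. Across 6981 tested genes with a mean of at least 50, the Pearson correlation of log2 levels between negative-side columns 1 and 3 was 0.74, and their correlations with the other 4 lay between 0.49 and 0.69. Among those 4 the correlations lay between 0.65 and 0.81, so that both ranges overlapped. The remaining negative-side column, number 2, had its highest correlation with positive-side column 2 (0.81). In ES cells, feeder fibroblast markers summed to 1618 normalised reads in negative-side column 2 and to between 329 and 377 in the other 3 columns. Dis3l itself had 18.6, 8.12 and 0 normalised reads on the positive and 6.19, 4.46 and 11.5 on the negative side in blastocysts, and 11.2 and 10.5 against 37.1 and 37.7 in ES cells. Defining markers of each labelled material were present: Pou5f1, Nanog, Krt18 and Dab2 in blastocysts, and Pou5f1 with a mean of 962 in ES cells.

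In blastocysts none of the transporters passed the authors' test after adjustment, while most had a positive fold change. The authors' deposited table, made with DESeq2 per the submitters' processing notes, called 0 of the 9 tested members at an adjusted p-value under 0.05, against 0.0986% of the 15209 tested genes. Before adjustment 1 of the 9, a positive one, had a p-value under 0.05, Slc3a2, against 2.68% of tested genes, and 0 negative members, against 3.53%. The log2 fold change in the authors' deposited table was positive for 8 of the 9, against 48.3% of tested genes. Their median was 0.95, while the median of all tested genes was −0.04. For 9 of the 10 genes negative-side columns 1 and 3 were the 2 lowest columns. For 8 of these 9, negative-side column 2 lay within or above the range of the positive side, and for Slc6a9 it lay below it.

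**Figure D1:**
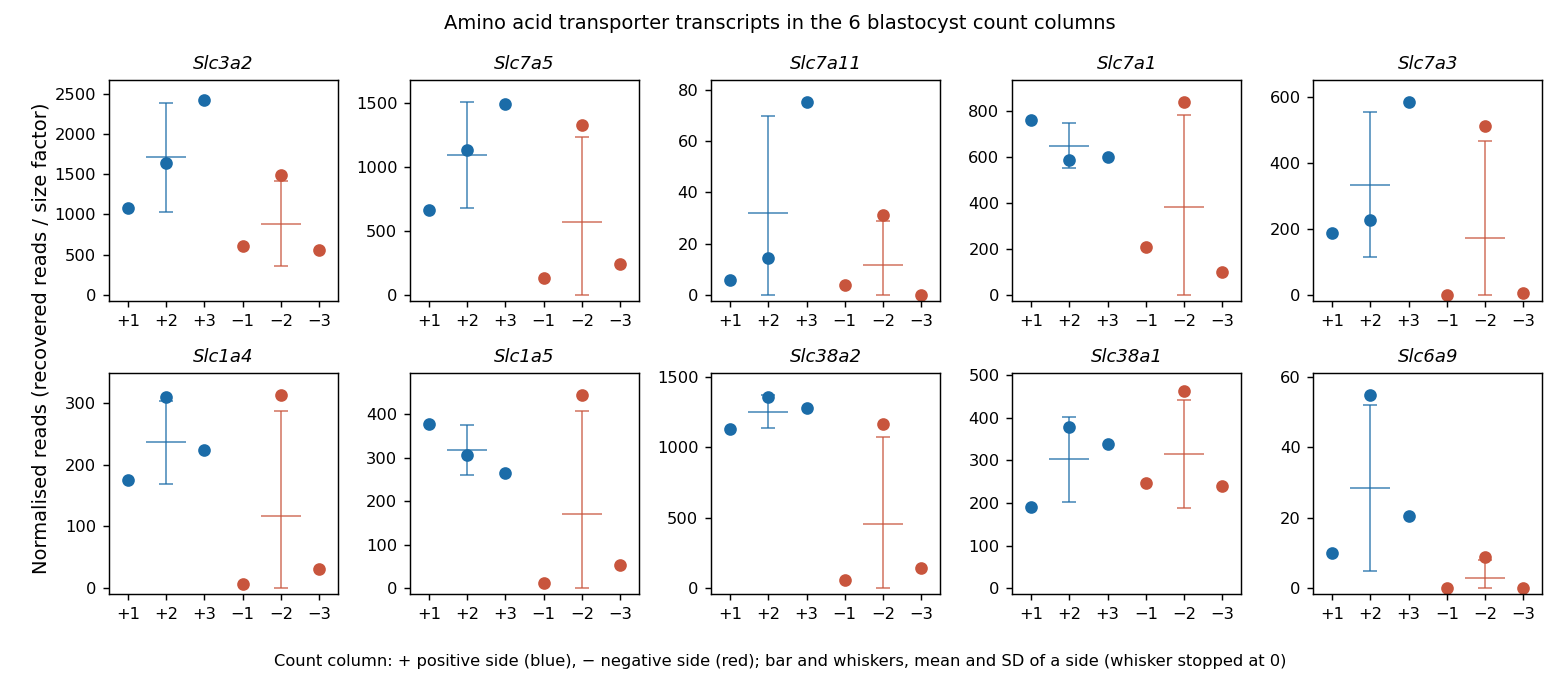
Normalised reads of the 10 transporter genes in the 6 blastocyst count columns, 1 panel per gene, with the mean and SD of each side (n = 3 columns). In every panel except that of Slc38a1, negative-side columns 1 and 3 are the 2 lowest points, and negative-side column 2 lies within or above the range of the positive side, except in the Slc6a9 panel, where it lies below.

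The heavy chain gene Slc3a2 (chromosome 19, 8706882 to 8723369, minus strand, GRCm38, as are all gene coordinates here) was the most abundant member. Its normalised reads were 1075, 1634 and 2420.3 on the positive side, against 605, 1492 and 555 on the negative side. The sides overlapped only through negative-side column 2, which lay above positive-side column 1. The positive side averaged 1709.8 ± 676 and the negative side 884 ± 527 normalised reads (SD, n = 3 columns each). In the authors' deposited table its log2 fold change was 0.95 (standard error 0.41), and the Wald p-value of 0.0199 became 0.682 after adjustment over all tested genes. Without negative-side columns 1 and 3 the log2 ratio of the side means fell to 0.20.

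Slc7a5, the leucine-exchanging light chain (chromosome 8, 121881150 to 121907694, minus strand), had 664, 1133 and 1495 normalised reads on the positive side, against 136, 1333 and 239 on the negative side. Its highest and lowest columns differed 10.99-fold, and negative-side column 2 lay above positive-side columns 1 and 2. The log2 fold change of Slc7a5 in the authors' deposited table was 0.95 (standard error 0.98, adjusted p = 0.851). Against negative-side column 2 alone its log2 ratio was −0.28.

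Slc7a11, the cystine-importing light chain whose promoter window holds TGATGNAA on both strands (chromosome 3, 49892526 to 50443614, minus strand), was low throughout. Its normalised reads were 5.71, 14.2 and 75.4 on the positive side, against 3.71, 31.2 and 0 on the negative side. Before normalisation, positive-side column 3 held 66 reads, against 8 and 14 in the other columns of its side. The authors' deposited table gave a log2 fold change of 1.45 (standard error 1.52, adjusted p = 0.857). Leaving out positive-side column 3 turned the log2 ratio to −0.22.

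Heavy and light chains were also set side by side per kilobase of exon. Slc3a2 divided by the summed light chains Slc7a5, Slc7a6, Slc7a7, Slc7a8, Slc7a10 and Slc7a11 gave ratios of 0.51, 0.61 and 0.71 for the positive side, against 0.49, 0.51 and 0.46 for the negative side. The ratio therefore varied less than either term: summed light chains ranged from 339 to 968 normalised reads per kilobase over the 6 columns. Slc7a6, the light chain y+LAT2, varied less than Slc7a5, which ranged from 36.7 to 403 normalised reads per kilobase. Slc7a6 had 319.9, 266.9 and 251.5 on the positive side, against 214.6, 220.5 and 217.8 on the negative side. These sides did not overlap, which held for 4.7% of 14783 tested genes in that direction. In positive-side column 1 and negative-side columns 1 and 3 Slc7a6 was the most abundant light chain per length, and in the remaining columns it was Slc7a5.

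Of the cationic transporters, Slc7a1 (chromosome 5, 148327410 to 148399904, minus strand), which encodes CAT1, had 763, 589 and 601 normalised reads on the positive side, against 208, 843 and 97.8 on the negative side. Negative-side column 2 was the highest of all 6 columns. Its log2 fold change was 0.77 (standard error 0.57, adjusted p = 0.811) in the authors' deposited table. Against negative-side column 2 alone the log2 ratio of Slc7a1 was −0.37.

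Slc7a3, the X-linked gene of CAT3 (chromosome X, 101079210 to 101086020, minus strand), had the widest spread of the abundant members. It had 188, 227 and 587 normalised reads on the positive side, against 0, 513 and 5.75 on the negative side. The value in negative-side column 1 was 0 of 2824320 recovered reads, and a floor of 3 read pairs, each counted as 2 reads, allows up to 3.71 normalised reads there. Negative-side column 3 held 4 reads. The authors' deposited table gave Slc7a3 a log2 fold change of 0.95 (standard error 2.31) and no p-value, so it is the 1 untested member. Slc7a1 stood at 5.58 times Slc7a3 per kilobase in negative-side column 3 and at 0.34 times in positive-side column 3.

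The neutral exchangers also had their 2 lowest values in negative-side columns 1 and 3. Slc1a4 (ASCT1, a carrier of serine, alanine and threonine; chromosome 11, 20302180 to 20332713, minus strand) had 176, 309 and 224 normalised reads on the positive side, against 7.42, 312 and 31.7 on the negative side. Slc1a5 (ASCT2, a carrier of glutamine; chromosome 7, 16781346 to 16798274, plus strand, in the blastocyst table) had 378, 307 and 265 against 12.4, 444 and 54.7. The highest column exceeded the lowest 42.1-fold for Slc1a4 and 35.9-fold for Slc1a5, and for both genes the highest was negative-side column 2. In the authors' deposited table the log2 fold changes were 1.01 (standard error 0.86) for Slc1a4 and 0.90 (standard error 1.25) for Slc1a5. The adjusted p-values were 0.811 and 0.93 in the authors' deposited table. Against negative-side column 2 alone the log2 ratios were −0.40 and −0.49.

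The genes of the sodium-coupled neutral transporters Slc38a2 and Slc38a1, both on the minus strand of chromosome 15, differed in how they varied between columns. Slc38a2 (SNAT2, chromosome 15, 96687394 to 96699698, minus strand) had 1127, 1356 and 1278 normalised reads on the positive side, against 59.4, 1166 and 144 on the negative side. Its positive-side columns and negative-side column 2 lay close together, and the other 2 columns lay far below. The authors' deposited table gave Slc38a2 a log2 fold change of 1.46 (standard error 1.14, adjusted p = 0.811), and against negative-side column 2 alone the ratio was 0.10.

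Slc38a1 (SNAT1, chromosome 15, 96571418 to 96642913, minus strand) had 189.9, 378 and 338 normalised reads on the positive side, against 246, 462 and 239 on the negative side. It was the only member whose lowest value was a positive-side column, and its columns spanned no more than 2.43-fold. The log2 fold change of Slc38a1 in the authors' deposited table was −0.06 (standard error 0.44, adjusted p = 0.997), with a 95% interval from −0.93 to 0.80. Per kilobase, Slc38a2 stood at 11.6, 7.00 and 7.37 times Slc38a1 on the positive side, against 0.47, 4.93 and 1.18 times on the negative side. Slc38a1 was thus the more abundant of the pair per length in negative-side column 1 alone.

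Slc6a9, the glycine transporter gene (chromosome 4, 117834506 to 117875198, plus strand), had 9.99, 54.8 and 20.6 normalised reads on the positive side, against 0, 8.92 and 0 on the negative side. It was the only member whose sides did not overlap. This held for 4.7% of 14783 tested genes in that direction and for 5.26% in the other. The gap was narrow, with 14 reads in the lowest positive-side column and 8 in the highest negative-side column before normalisation. The authors' deposited table gave a log2 fold change of 3.27 (standard error 1.73, Wald p = 0.0587, adjusted p = 0.811). The log2 ratio of the side means of recovered reads was 3.26. It was 2.36 without positive-side column 2, and 1.67 without negative-side columns 1 and 3.

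**Figure D2:**
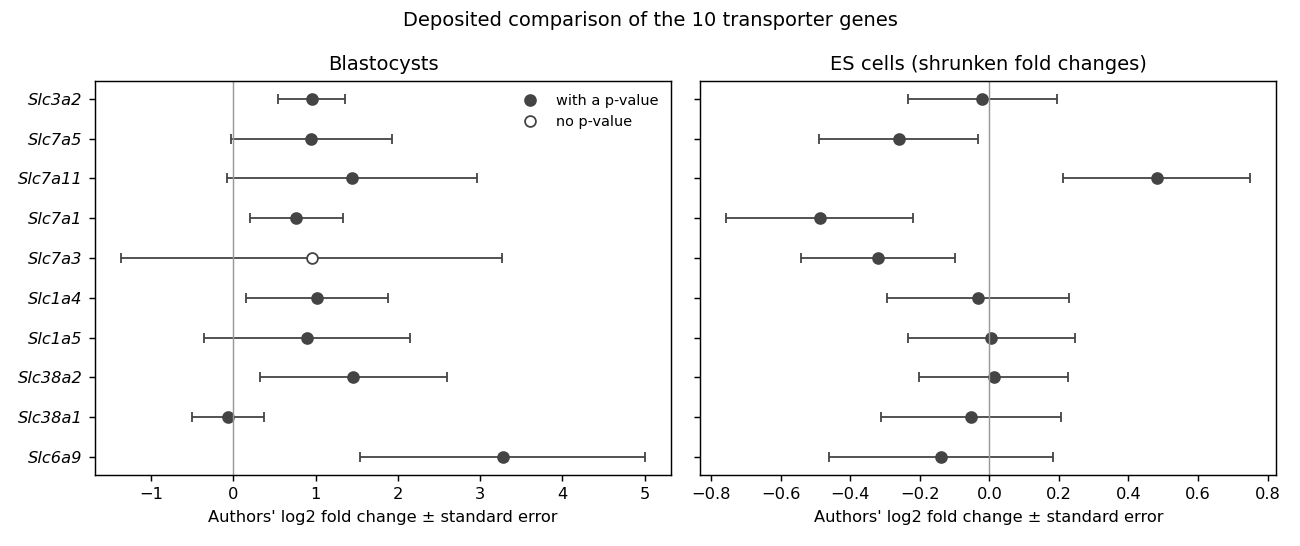
The authors' log2 fold change with its standard error for the 10 genes in blastocysts (left) and ES cells (right, where the deposited values are shrunken and the axis is narrower). In blastocysts all points except Slc38a1 (−0.06) lie to the right of 0; in ES cells Slc7a11 lies farthest to the right (0.48) and Slc7a1 farthest to the left (−0.49).

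For 9 of the 10 genes, all but Slc38a1, negative-side columns 1 and 3 were the 2 lowest of the 6. The same order held for 13.6% of the 9684 tested genes with a mean of at least 15 and for 9.68% of 14783 tested genes whatever their mean, and the opposite order, with these columns the 2 highest, for 14.2% of the former. These columns were singled out after their values were seen, so the count describes the libraries and is not a comparison of groups. The summed level of the 10 genes was 4577, 6000.3 and 7304 normalised reads on the positive side, against 1278, 6605 and 1367 on the negative side. Scaled to the recovered reads of each column instead, the members took between 2.60 and 4.13 of every 1000 reads in the other 4 columns and 0.732 and 0.790 in negative-side columns 1 and 3. In a whole embryo, less transcript per cell and fewer cells that express a gene cannot be told apart.

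Members that varied together did so over the same 6 columns, which share their library and scaling, and the correlations describe only these points. For 9 of the 10 genes, negative-side columns 1 and 3 were the 2 lowest, and these columns weigh heavily in the correlations between those genes. No correlation of members was computed without them, and the share of other genes reaching such values is not given here. On log2 values with 1 normalised read added, the member most like Slc38a2 was Slc1a4 (Pearson's r 0.99, 6 columns), and the most like Slc1a4 was Slc38a2. Slc1a5 was most like Slc1a4 (0.98). Slc7a5 and Slc7a3 were each most like the other (0.99), and Slc3a2 was most like Slc7a5 (0.94), a light chain of its own heterodimer. Slc7a11 was most like Slc3a2 (0.93), Slc6a9 most like Slc38a2 (0.92) and Slc7a1 most like Slc38a2 (0.86). The highest correlation of Slc38a1 with any member was 0.67, with Slc7a11, and Slc38a1 was the least alike member for 8 of the other 9.

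Several other lists, also chosen with earlier results of these data known, were read in the same way for blastocysts. Of 32 other plasma membrane amino acid transporter genes, 17 had a mean above 0 and 15 were tested. The authors' deposited table called 0 of them, 10 were positive and 5 negative, and the median log2 fold change was 0.57. Before adjustment 1 positive gene had a p-value under 0.05, Slc7a10 (a light chain for small neutral amino acids, 6.12 in the authors' deposited table), as did 2 negative genes, Slc16a10 (the aromatic amino acid carrier TAT1, −7.05) and Slc7a2 (the cationic carrier CAT2, −5.03). All 3 were scarce: Slc7a10 had reads only in positive-side columns 2 and 3, Slc16a10 only in negative-side columns 1 and 3. Of the 10 genes of this list with a mean of at least 15, 6 had negative-side columns 1 and 3 as the 2 lowest.

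The 3 most abundant of these other carriers were Slc7a6, Slc6a6 and Slc38a4. Slc6a6, the taurine transporter gene, had 1074, 890.1 and 909.6 normalised reads on the positive side, against 279.5, 1131 and 449 on the negative side, again lowest in negative-side columns 1 and 3. Slc38a4, a system A carrier known as an imprinted gene, had 597, 897 and 805 against 531, 582 and 435. Its sides did not overlap, as for 4.7% of tested genes in that direction. None of the 3 had an unadjusted p-value under 0.05 in blastocysts.

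Carriers of the lysosome and the mitochondrion gave 16 tested genes, 0 called, with 9 positive and 7 negative values and a median of 0.23 in the authors' deposited table. The most abundant were Slc38a7, a lysosomal glutamine carrier, with a log2 fold change of 0.41 in the authors' deposited table, Slc25a13, the mitochondrial aspartate and glutamate carrier citrin (−0.67), and Slc25a44, a mitochondrial carrier of branched-chain amino acids (−0.49). Of the 14 with a mean of at least 15, negative-side columns 1 and 3 were the 2 lowest in 4 and the 2 highest in 2.

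Genes of the ATF4 pathway that are no transporters gave 24 tested genes in blastocysts. The authors' deposited table called 1 of them, 20 were positive and 4 negative, and the median was 0.63. The called gene was Chac1, which encodes an enzyme that breaks down glutathione, with 116, 249.7 and 89.1 normalised reads on the positive side, against 2.47, 15.6 and 11.5 on the negative side, so that its sides did not overlap and negative-side column 2 was low too. Shmt2, the mitochondrial serine hydroxymethyltransferase gene, stood at 0.87 on the log2 scale (p = 0.0393 before adjustment) in the authors' deposited table. Of the 25 genes of this list with a mean of at least 15 and recovered reads, 17 had negative-side columns 1 and 3 as the 2 lowest, and 0 had them as the 2 highest. Atf4 itself had 824, 1372 and 1001 normalised reads on the positive side, against 546, 863 and 662 on the negative side, and Asns, the asparagine synthetase gene, 1022, 1112 and 873 against 361, 1159.5 and 752. Psat1, the gene with the highest mean of the list, has no recovered reads here.

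**Figure D3:**
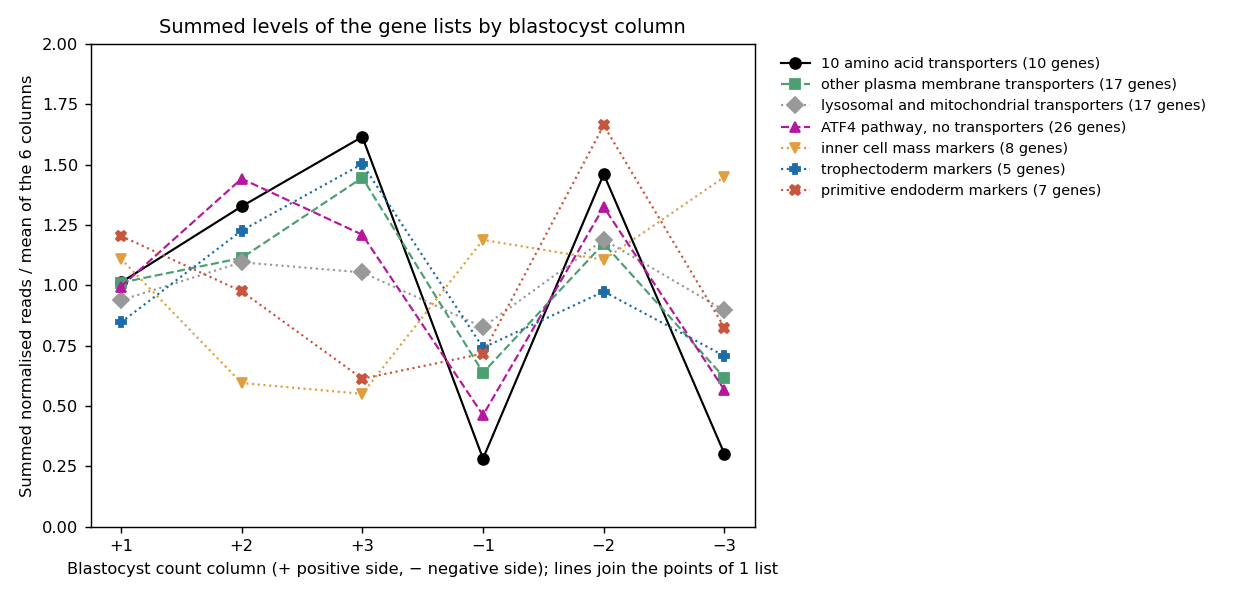
Summed normalised reads of 7 gene lists in the 6 blastocyst columns, each divided by the mean of its 6 columns; lines join the points of 1 list and carry no order. The 10 transporters reach their lowest values in negative-side columns 1 and 3. The ATF4 pathway genes, the other plasma membrane carriers, the lysosomal and mitochondrial carriers and the trophectoderm markers are also lowest there. Inner cell mass markers are highest there, and primitive endoderm markers are lowest in positive-side column 3.

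Markers of the cell layers of the embryo moved across the same columns. Inner cell mass markers, 8 of 9 with recovered reads, summed to 1887, 1012 and 936 normalised reads on the positive side, against 2019.9, 1879.7 and 2463 on the negative side. Trophectoderm markers, 5 of 9 with recovered reads, summed to 2761, 4001 and 4902 against 2419, 3179 and 2308. The 4 without recovered reads had log2 fold changes of −0.635 (Krt18), −0.874 (Krt8), 0.521 (Gata3) and −0.025 (Cdx2) in the authors' deposited table. The abundant keratin genes Krt8 and Krt18 thus went against the direction of this partial sum. Primitive endoderm markers, 7 of 8, summed to 3453, 2795 and 1758 against 2056, 4765 and 2365. Of 9 feeder fibroblast markers, 7 had a mean of 0, collagen genes included, and Pdgfrb and Thy1 together summed to between 0 and 169 normalised reads.

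Single markers varied more. Cubn, a receptor gene of primitive endoderm and its derivatives, had 1487, 1031 and 370.2 normalised reads on the positive side, against 162, 2700 and 127 on the negative side. Sox7, a primitive endoderm transcription factor gene, had 199, 108 and 171 against 0, 46.8 and 2.88, and Nanog, a pluripotency factor gene, 197, 65.0 and 9.14 against 518, 185 and 331. Gata6, another primitive endoderm factor gene, had 619.6, 759 and 269.7 against 1238, 631 and 949.5. Negative-side columns 1 and 3 were the 2 lowest for Cubn and Sox7 and the 2 highest for Nanog and Gata6, so these markers did not move as one. Among primitive endoderm markers whose reads were recovered and whose mean reached 15, these columns were the 2 lowest for 3 of 7 and the 2 highest for 1. Among inner cell mass markers they were the 2 lowest for 0 of 8 and the 2 highest for 3, and of the trophectoderm markers the 2 lowest for 1 of 5 and the 2 highest for 0. The part of the cell layers in the transporter values was not tested.

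In ES cells the transporter transcripts varied less between columns, and the highest column exceeded the lowest by between 1.13-fold (Slc3a2) and 2.70-fold (Slc7a1). The authors' deposited table called 0 of the 10 members, against 0.261% of the 10739 tested genes. Before adjustment 0 members had a p-value under 0.05, against 2.21% of tested genes in the positive and 3.42% in the negative direction. The log2 fold change in the authors' deposited table was positive for 3 of 10, against 50% of tested genes, with a median of −0.04 for the members and 0 to 2 decimals for all tested genes. Summed over the 10 genes, the columns held 3232 and 2973 normalised reads on the positive side, against 3099.6 and 3685 on the negative side. Slc7a1, Slc7a3, Slc7a5, Slc38a1 and Slc38a2 were highest in negative-side column 2, the column with the high fibroblast marker sum. The share of all tested genes highest in that column is not given here. The largest parts of that sum were Col3a1 (865) and Col1a2 (294). S100a4 (42.5) and Thy1 (14.5) were lowest in that column, and the other listed fibroblast markers were highest there. The part of fibroblasts in the transporter values was not tested.

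Slc7a11 had the largest positive value among the members in ES cells. Its normalised reads were 217 and 157 on the positive side, against 106 and 141 on the negative side, so the sides did not overlap. It was the 1 member in that direction, against 20.1% of 10592 tested genes. The authors' deposited table gave a log2 fold change of 0.48 (standard error 0.27, Wald p = 0.0733, adjusted p = 1), a value shrunken towards 0, and the log2 ratio of the recovered side means was 0.60.

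The cationic carriers lay on the other side. Slc7a1 had 366 and 188 normalised reads on the positive side, against 345 and 508 on the negative side, with overlap, and a log2 fold change of −0.49 (standard error 0.27, Wald p = 0.0698) in the authors' deposited table. Positive-side column 2 was the low one: without it the log2 ratio moved from −0.62 to −0.22. Slc7a3 had 358 and 349 against 429.8 and 482 normalised reads, without overlap, and −0.32 (standard error 0.22, Wald p = 0.147) in the authors' deposited table. The 370 X-linked tested genes had a median of −0.31 in that table, so centred on the X chromosome Slc7a3 stood at −0.01.

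Slc7a5 had 370.4 and 296 normalised reads on the positive side, against 386 and 439 on the negative side, and Slc6a9 had 36.7 and 35.6 against 43.7 and 40.6. With Slc7a3 they made 3 members whose negative-side columns both lay above both positive-side columns, against 20.3% of tested genes. The authors' deposited table gave Slc7a5 −0.26 (standard error 0.23) and Slc6a9 −0.14 (standard error 0.32).

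Slc3a2 had 493 and 558 normalised reads on the positive side, against 517 and 549.8 on the negative side. Slc38a2 had 683 and 777 against 649 and 795, and Slc1a5 had 247 and 215 against 228 and 232. For these 3 genes the highest column exceeded the lowest by no more than 1.23-fold. The 95% intervals of their log2 fold changes in the authors' deposited table ran from −0.44 to 0.40, from −0.41 to 0.43 and from −0.47 to 0.48. The remaining 2 genes also overlapped between sides: Slc1a4 had 151 and 155 against 179.7 and 135 normalised reads, and Slc38a1 had 308 and 242 against 215 and 362.

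**Figure D4:**
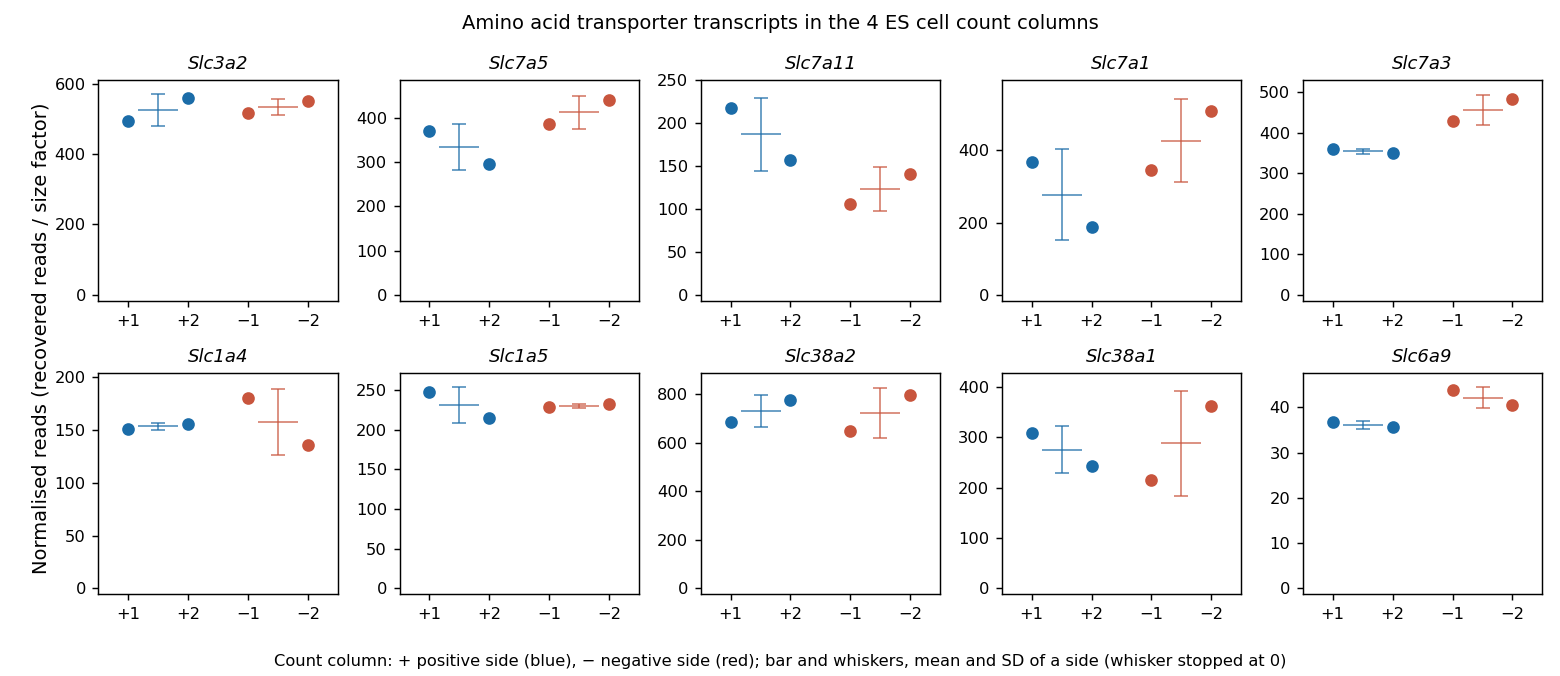
Normalised reads of the 10 genes in the 4 ES cell count columns, 1 panel per gene, with the mean and SD of each side (n = 2 columns). Most panels are flat; Slc7a11 is higher in both positive-side columns, while Slc7a3, Slc7a5 and Slc6a9 are higher in both negative-side columns.

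Per kilobase, Slc3a2 divided by its summed light chains (4 of the 6 listed in this table) was 0.87 and 1.04 on the positive side, against 0.94 and 0.96 on the negative side. Slc7a5 exceeded Slc7a11 by 6.41 and 7.10 times on the positive side, against 13.7 and 11.7 times on the negative side, which puts the difference of both genes into 1 ratio. Slc38a2 stood between 4.28 and 6.25 times Slc38a1 in the 4 columns.

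Of the other plasma membrane carriers, 11 were tested in ES cells, 0 were called, 8 were positive and 3 negative, and the median log2 fold change in the authors' deposited table was 0.13. At an unadjusted p-value under 0.05 were Slc38a4 (0.56), Slc6a15, a carrier of branched-chain amino acids and proline (0.73), and Slc1a1, the glutamate and cysteine carrier EAAT3 (−0.79), all from the authors' deposited table. Slc38a4 had 366 and 267 normalised reads on the positive side, against 165 and 232 on the negative side, without overlap. Slc6a15 rested on 1 column, with 47.9 and 153 against 50.4 and 36.7. Slc1a1 had 7.19 and 1.32 against 23.8 and 23.2 normalised reads. Slc6a6 and Slc7a7 were the other carriers of this list among its 3 most abundant, with means of 346 and 129 in the authors' deposited table.

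Organelle carriers gave 14 tested genes in ES cells, 6 positive and 8 negative, with a median of −0.17 in the authors' deposited table and 0 called. ATF4 pathway genes that are no transporters gave 27 tested genes, 13 positive and 14 negative, with a median of 0.00 to 2 decimals and 0 called. Their 3 most abundant genes, Asns, Cth and Eif4ebp1, had log2 fold changes of 0.01, 0.13 and −0.15 in the authors' deposited table. Pluripotency markers, 8 of 9 with recovered reads, summed to 4302 and 3652 normalised reads on the positive side, against 5387 and 4691 on the negative side.

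Levels of different genes were compared per kilobase of exon, within each material only, because the materials had different library protocols. In blastocysts the order by the authors' mean per kilobase was Slc3a2 (368), Slc7a5 (225), Slc38a2 (96.7), Slc7a3 (67.0), Slc1a5 (58.3), Slc1a4 (45.0), Slc7a1 (44.8), Slc38a1 (17.9), Slc6a9 (3.06) and Slc7a11 (1.56). Only 2 steps of this order, from Slc7a1 to Slc38a1 and from Slc38a1 to Slc6a9, exceeded the larger SD over columns of the 2 genes. Slc3a2 was first and Slc7a5 second in each of the 6 columns, while the order of the others differed between columns. In negative-side column 1, Slc38a2 (6.72) lay below Slc7a1 (18.0) and Slc38a1 (14.3) per kilobase, and Slc7a3 was at 0. In positive-side column 1, Slc1a5 (90.7) and Slc7a1 (66.2) lay above Slc7a3 (49.8).

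In ES cells the order was Slc3a2 (150.1), Slc7a3 (107), Slc7a5 (101), Slc38a2 (82.2), Slc1a5 (55.2), Slc1a4 (39.6), Slc7a1 (30.5), Slc38a1 (16.4), Slc7a11 (11.1) and Slc6a9 (7.62) normalised reads per kilobase. Neighbours that did not differ by more than the larger SD were Slc7a3 and Slc7a5, and Slc1a4 and Slc7a1. The same genes held the first and the fifth to eighth places in both materials. Slc7a11 and Slc6a9 took the last 2 places in both, in opposite order. With the length of the longest transcript in place of all exons, Slc1a4 and Slc7a1 changed places in both materials, and Slc7a5 and Slc38a2 did so in ES cells.

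**Figure D5:**
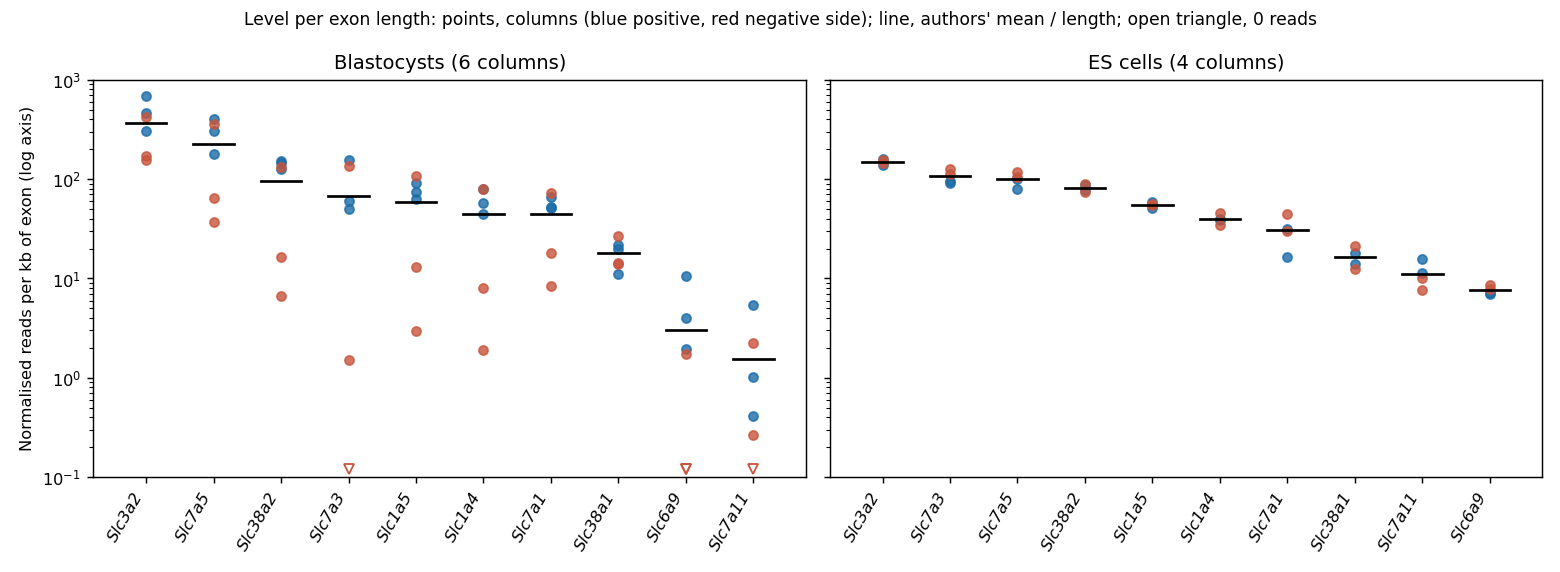
Level per kilobase of exon for the 10 genes in blastocysts (left) and ES cells (right), ordered by the authors' mean per kilobase (black line), with 1 point per count column on a log axis and open triangles for 0 reads. The blastocyst columns spread more than 10-fold for 7 of the 10 genes and the ES cell columns for none; Slc3a2 is first in both.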

How the data were processed

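The data are 2 tables of comparison results deposited by the authors, for blastocysts and for ES cells. Per the submitters' processing notes, the authors used STAR 2.4.0b, SAMtools, bedtools, featureCounts, Subread 2.0.1, DESeq2 1.34.0 and the build GRCm38; their settings are not given in the sources used here. Per the file headers, the signal column is the authors' mean of normalised counts over libraries, the log2 columns are the authors' log2 change with its error, the score is the authors' Wald statistic, and the p-value columns are the authors' p-value and its adjusted form. The ES cell fold changes are shrunken, which understates ratios. The tables hold 0 columns of per-sample values.

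Whole reads per count column were solved from the means (up to 999, and up to 1400 for listed genes) with Python 3 code using numpy and numba. In blastocysts, solutions also had to give the deposited fold change within 1e-09, except at the smallest means, where a single combination giving the mean was enough. A single solution was found for 16931 of 16954 genes searched in blastocysts and 12862 of 12862 in ES cells. For 13254 of the 16931 it also gave the fold change. On simulated data, reads were recovered for 100% of 200 genes in each table. The range of means covered there is not given here, and recovery at the highest member means was not tested separately. In blastocysts 1284484 combinations gave the mean of Slc3a2 and 48240 that of Slc7a5. Combinations were counted only where the positive side's share of normalised reads lay near that expected from the deposited fold change. The limit was narrower for Slc3a2. For each gene 1 of them also gave the deposited fold change. No count test was run on recovered reads, because their columns carry no genotype; tests are the authors'. The design allowed for this fallback. Called means an adjusted p-value under 0.05. Intervals are 95% Wald intervals, and counting floors cover counting error only. Exon lengths came from GENCODE M21 and promoters from RefSeq. Named were all 10 members and, from other lists, genes with an unadjusted p-value under 0.05 or among the 3 highest means of their list; markers are given as sums, with 4 single markers picked after their values were seen. The members and lists were chosen with earlier results of these data known. Alternatives covered thresholds, minimum mean, rescaled statistics, autosomal genes, other scalings, an added read and each column left out.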

Additional observations from a re-analysis of the deposited data

How the results depend on the processing

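No paired analysis was possible because the count columns carry no replicate numbers. The count of called members stayed at 0 in both materials under all 6 alternatives. A limit that only adds strictness, such as an adjusted p-value under 0.01, could only return 0 again and is no check on this count. At an unadjusted p-value under 0.05 the blastocyst count of 1 became 0 with a log2 fold change of at least 1, since Slc3a2 stands at 0.95, and the ES cell count of 0 became 2 once the statistics were divided by their robust SD (0.904), Slc7a1 and Slc7a11 passing then; these counts were added after seeing the data.

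Other scalings, the ratio of recovered reads and an added read kept the sign of each member in both materials. The count of 9 members lowest in negative-side columns 1 and 3 was also 9 with reads scaled by their total. Leaving out each column in turn kept the sign in 56 of 59 blastocyst values and in 31 of 40 ES cell values. In blastocysts Slc7a11 ranged from −0.22 to 4.10 (reversed at −0.22 without positive-side column 3) and Slc38a1 from −0.26 to 0.32 (reversed at 0.18 without positive-side column 1 and 0.32 without negative-side column 2). In ES cells the reversals were all of small values: Slc3a2 from −0.11 to 0.066, Slc1a4 from −0.23 to 0.18, Slc1a5 from −0.10 to 0.10, Slc38a2 from −0.12 to 0.17 and Slc38a1 from −0.40 to 0.36. Without negative-side columns 1 and 3, an alternative chosen after seeing the data, 5 members reversed: Slc7a1 to −0.37, Slc7a3 to −0.62, Slc7a5 to −0.28, Slc1a4 to −0.40 and Slc1a5 to −0.49. Without negative-side column 2, the blastocyst log2 ratios reached 6.86 for Slc7a3, 4.10 for Slc7a11 and 3.63 for Slc38a2. Slc6a9 then had no ratio, since its other negative-side columns held 0 reads. The length of the longest transcript moved levels per kilobase by more than 1 SD for 2 members in blastocysts and 8 in ES cells.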
